A study of Rattus norvegicus with 10 samples.

Results

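Genes of the Wnt pathway were compared between the mammary glands of 5 ACI rats and 5 BN rats, all female, after treatment with E2 (estradiol). The genes were chosen by name from the annotation of the array: the numbered Wnt, Frizzled (Fzd), Sfrp, Dkk, Rspo and Axin genes, with *Lef1*, *Lrp5*, *Lrp6*, *Ctnnb1*, *Lgr4* and *Lgr5*. This gave 36 genes measured by 55 probe sets, of 14217 named genes and 31042 probe sets in all, and each gene is represented by its probe set with the highest mean over the 10 arrays. The strains are labelled ACI/SegHsd and Brown Norway, and the implant that released E2 was placed at 9 weeks of age and stayed for 12 weeks in every rat of both strains. No untreated rat is among these arrays, so each comparison sets strain against strain under the same treatment and says nothing of what E2 itself did. ACI rats are known to develop mammary cancer under E2 and BN rats to resist it, and the labels place the time of collection before tumours could be felt. Each rat gave 1 array of total RNA from its gland, so SDs describe variation among rats. Arrays of the strains were deposited under separate runs of accession numbers, so strain and deposit cannot be told apart.

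Wnt proteins are secreted ligands that bind Frizzled receptors together with the co-receptors Lrp5 or Lrp6 on the receiving cell. Binding stops the complex built on Axin and Apc from destroying β-catenin, the product of *Ctnnb1*, which then enters the nucleus and activates genes with transcription factors of the Lef and Tcf family. R-spondins, through Lgr receptors, keep Frizzled on the cell surface, whereas secreted Frizzled-related proteins (Sfrp) and Dickkopf proteins (Dkk) hold the ligand or the co-receptor back. In the mammary gland Wnt4 is made by hormone-sensing luminal cells under progesterone and acts on neighbouring cells during side branching. The study itself named *Wnt4* and *Lef1* from these samples, so their values here are no independent evidence of a direction. By quantitative PCR of mammary RNA the study also reported *Wnt4* as significantly higher in ACI rats and *Lef1* as significantly higher in BN rats.

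Expression was read as log2 levels with a floor of 2.23 that many probe sets shared. A gene was taken as near background in a strain when all 5 rats lay under a log2 level of 4, and for such a gene the fold is a lower bound, computed with the dimmer strain set at a log2 level of 4. Calls are at an adjusted p under 0.05 from limma over all probe sets, and every log2 fold change has ACI on top, which makes it negative where BN rats had more. Of the 36 genes, 14 were near background in both strains, 8 in 1 strain and 14 in neither. Called genes numbered 3 higher in ACI rats (*Wnt4*, *Wnt5b* and *Lgr4*) and 4 higher in BN rats (*Fzd1*, *Sfrp4*, *Sfrp5* and *Wnt2*). Over all named genes 8.29% were called higher in ACI and 9.12% higher in BN, or 17.4% in either direction, against 19.4% of the Wnt genes, so the number of calls is close to that of genes at large. The same 7 genes were those whose values did not overlap between strains, which over all named genes happened in 8.3% with ACI above and in 8.32% with BN above. The median log2 fold change was -0.01 for the Wnt genes. At an unadjusted p under 0.05 from limma there were 12 Wnt genes. The share of all named genes at that limit was not taken, so this count cannot be set against the 17.4% at an adjusted p.

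Facts of the arrays that touch these results are the following. Array medians ran from 3.35 to 3.53, and every BN array had a higher median than every ACI array. The highest ACI median was 3.38 and the lowest BN median was 3.41. Markers of luminal epithelium averaged log2 levels of 9.54 to 9.89 in ACI rats and 8.69 to 9.55 in BN rats, far above background in both, with 4 of 13 called higher in ACI, and markers of basal cells had 3 of 10 called higher in ACI. Markers of endothelium (5 of 8), macrophages (6 of 10), T cells (8 of 12) and B and plasma cells (9 of 10) were called higher in BN and in no case higher in ACI. Fibroblast markers averaged 8.65 to 9.23 in ACI rats and 9.09 to 10.37 in BN rats, with 3 of 11 called higher in BN and 1 higher in ACI. Adipocyte markers averaged 9.31 over ACI rats and 9.94 over BN rats, and 2 of 9 were called, both toward BN (median log2 fold change -0.72). Skeletal muscle markers averaged 6.62 to 10.81 in ACI rats and 3.64 to 9.82 in BN rats, and their median log2 fold change was 3.44 toward ACI, although none of 16 was called. In whole glands, fewer cells of a type and less RNA per cell cannot be told apart, and the part of these markers in the differences below was not tested. Animal IDs open with S in rats 1 to 3 and with H in rats 4 and 5 of each strain, for reasons not given in the sources used here. Within series S alone 3 Wnt genes were called higher in ACI and 3 higher in BN, beside 4855 of all 31042 probe sets called. Within series H alone, with 2 rats a strain, none was called in either direction, beside 100 of all probe sets. With the series as a block 3 and 4 were called, beside 4296 of all probe sets.

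The promoter windows of 3 of the genes are shown because *Wnt4* had the largest strain difference, *Sfrp5* was a called antagonist, and *Axin2* is the usual feedback gene of the pathway. They are RefSeq sequences of build GRCr8, from 250 bases before to 50 after the annotated gene start, given on the strand of the gene. Capitals mark the letters that Lef and Tcf proteins are known to bind (ATCAAAG, its variant AACAAAG, its variant TTCAAAG and its variant TACAAAG, on either strand). *Wnt4* lies on the plus strand (chr5:154797200-154797499), *Sfrp5* on the minus strand (chr1:250960463-250960762) and *Axin2* on the plus strand (chr10:94398535-94398834).
Wnt4: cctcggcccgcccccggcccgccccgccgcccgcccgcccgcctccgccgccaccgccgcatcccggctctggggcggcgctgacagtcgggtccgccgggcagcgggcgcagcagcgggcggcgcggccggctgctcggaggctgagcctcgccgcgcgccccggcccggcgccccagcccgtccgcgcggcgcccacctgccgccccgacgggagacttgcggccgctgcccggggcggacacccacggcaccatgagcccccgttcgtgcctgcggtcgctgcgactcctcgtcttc
Sfrp5: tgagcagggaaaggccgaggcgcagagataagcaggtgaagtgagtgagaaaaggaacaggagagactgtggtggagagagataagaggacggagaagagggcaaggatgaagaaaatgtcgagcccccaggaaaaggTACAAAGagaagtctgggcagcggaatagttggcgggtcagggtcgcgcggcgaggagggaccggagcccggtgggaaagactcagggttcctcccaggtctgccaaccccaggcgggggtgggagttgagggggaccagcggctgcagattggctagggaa
Axin2: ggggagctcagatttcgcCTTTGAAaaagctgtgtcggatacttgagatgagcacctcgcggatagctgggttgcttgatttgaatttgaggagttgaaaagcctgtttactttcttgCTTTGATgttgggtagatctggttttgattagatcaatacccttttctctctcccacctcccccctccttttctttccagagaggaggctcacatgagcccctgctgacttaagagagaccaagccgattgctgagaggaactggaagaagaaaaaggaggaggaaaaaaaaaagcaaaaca
*Axin2* held CTTTGAA at 232 bases and CTTTGAT at 132 bases before its start, *Sfrp5* held TACAAAG at 112 bases before its start, and these letters were not in the *Wnt4* window. Windows were found for 24 of the 36 genes, and the letters occurred in 2 of them, *Axin2* and *Sfrp5*, against 17.1% of all 33469 windows. The letters GGTCA, 1 arm of an estrogen response element, occurred on either strand in 9 of the 24, against 40.5% of all windows. A match describes the sequence and does not show binding.

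Among the 13 Wnt ligand genes, 2 were called higher in ACI rats at levels above background, beside 8.29% of all named genes called higher in ACI. *Wnt4* had log2 levels of 7.42, 7.55, 7.51, 7.40 and 7.41 in ACI rats 1 to 5, against 3.39, 2.99, 2.99, 3.21 and 2.71 in BN rats 1 to 5. Every ACI rat lay in a narrow band far above every BN rat, all of which were near background. The mean was 7.46 ± 0.0676 in ACI rats and 3.06 ± 0.257 in BN rats (SD, n = 5 each), and the level was at least 11.0-fold higher in ACI (log2 fold change 4.40, standard error 0.116, adjusted p = 3.28e-07 from limma). Rats of ID series S alone gave a log2 fold change of 4.37, and those of series H alone gave 4.44, which was not called (adjusted p = 0.0927 from limma).

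*Wnt5b*, whose product is a ligand best known for signalling without β-catenin, had log2 levels of 8.59, 8.10, 8.00, 8.04 and 8.02 in ACI rats 1 to 5, against 5.99, 6.42, 7.55, 5.93 and 5.35 in BN rats 1 to 5. It was measured in both strains without overlap, and BN rat 3 lay nearest to the ACI rats. The mean was 8.15 ± 0.249 in ACI rats and 6.25 ± 0.821 in BN rats (SD, n = 5 each), or 3.74-fold higher in ACI (log2 fold change 1.90, standard error 0.374, adjusted p = 0.0123 from limma). Rats of ID series S alone gave 1.58 and those of series H alone 2.39, neither of them called (adjusted p = 0.115 and 0.169 from limma).

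*Wnt2*, which encodes a ligand made by stromal cells, was called higher in BN rats on values that were near background in all 10 rats. Its log2 levels were 2.23, 2.62, 2.55, 2.57 and 2.55 in ACI rats 1 to 5, against 2.67, 2.91, 2.91, 2.87 and 3.13 in BN rats 1 to 5 (log2 fold change -0.39, standard error 0.0985, adjusted p = 0.0341 from limma). No fold is given, since both strains were near background; the call was lost without any 1 of ACI rats 2 to 5 and of BN rats 2 to 4, and the second probe set of the gene was not called (adjusted p = 0.596 from limma). The other 10 ligand genes were not called. *Wnt2b* passed a log2 level of 4 in BN rat 5 alone, at 4.67, and was at 3.36 in the other BN rats and at 3.31 to 3.36 in ACI rats. *Wnt1*, at 3.51 ± 0.220 in ACI rats and 3.22 ± 0.167 in BN rats (SD, n = 5 each), *Wnt5a*, *Wnt6*, *Wnt7a*, *Wnt8b*, *Wnt9a*, *Wnt10a*, *Wnt11* and *Wnt16* were near background in both strains. A low level on an array does not show that a ligand was absent.

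**Figure D1:**
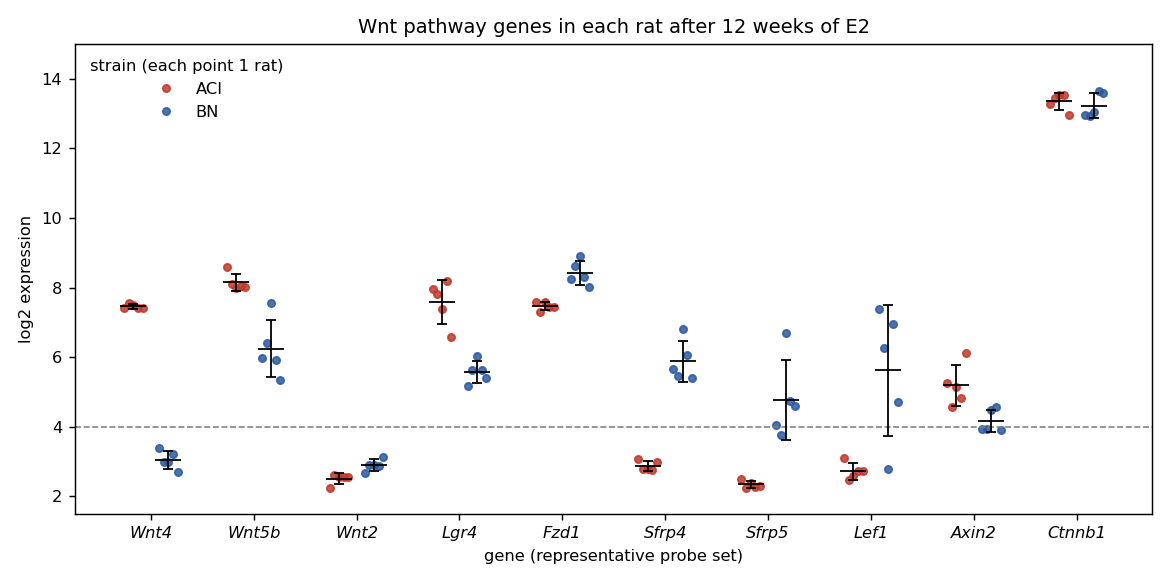
Log2 expression (y axis) of 10 Wnt pathway genes (x axis), with 1 point per rat, ACI in red on the left of each gene and BN in blue on the right, read from the representative probe set; bars give the mean ± SD of the 5 rats, and the dashed line marks the log2 level of 4 used as the limit of background. The strains do not overlap in *Wnt4*, *Wnt5b*, *Wnt2*, *Lgr4*, *Fzd1*, *Sfrp4* and *Sfrp5*; in *Lef1* BN rat 3 lies among the ACI rats.

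Among the R-spondins and their receptors, *Lgr4* was higher in ACI rats. This receptor binds R-spondins and so raises the sensitivity of a cell to Wnt ligands. Its log2 levels were 7.97, 7.83, 7.38, 8.20 and 6.58 in ACI rats 1 to 5, against 5.17, 5.63, 6.02, 5.63 and 5.41 in BN rats 1 to 5. ACI rat 5 was the lowest of its strain and still lay above every BN rat. The level was 4.06-fold higher in ACI, with means of 7.59 ± 0.640 in ACI rats and 5.57 ± 0.314 in BN rats (SD, n = 5 each; log2 fold change 2.02, standard error 0.311, adjusted p = 0.0039 from limma). It was called within ID series S (log2 fold change 2.12, adjusted p = 0.0178 from limma) and not within series H (1.87, adjusted p = 0.524).

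*Lgr5*, a related receptor used as a marker of stem cells in other epithelia, lay at the floor of 2.23 in all ACI rats and in BN rat 3, and had 4.97 in BN rat 4 and 3.71 in BN rat 5 (adjusted p = 0.346 from limma). The R-spondin gene *Rspo1* passed a log2 level of 4 in ACI rat 5 alone, at 4.76, and *Rspo3* was near background in both strains.

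Of the 9 genes of Frizzled receptors and co-receptors, only *Fzd1* was called, beside 17.4% of all named genes called in either direction. *Fzd1* was higher in BN rats. *Fzd1* had log2 levels of 7.58, 7.30, 7.59, 7.44 and 7.44 in ACI rats 1 to 5, against 8.25, 8.62, 8.91, 8.30 and 8.02 in BN rats 1 to 5. The ACI rats lay close together, and all BN rats were above them. The means were 7.47 ± 0.120 in ACI rats and 8.42 ± 0.348 in BN rats (SD, n = 5 each), a 1.93-fold difference (log2 fold change -0.95, standard error 0.160, adjusted p = 0.00603 from limma). In rats of ID series S alone it was -1.10 and called (adjusted p = 0.035 from limma), and in those of series H alone -0.72 and not called (adjusted p = 0.247).

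*Lrp6*, a co-receptor that Wnt ligands bring together with Frizzled, had the widest spread among BN rats next to *Lef1*. Its log2 levels were 8.08, 7.00, 7.56, 7.62 and 8.46 in ACI rats 1 to 5, against 5.50, 5.82, 7.90, 4.49 and 3.31 in BN rats 1 to 5. Only BN rat 3 lay within the range of the ACI rats, and the difference was not called (log2 fold change 2.34, standard error 0.782, adjusted p = 0.0953 from limma). It was called in the fit without BN rat 3. With all rats kept, it was also called with array weights, with median centring and with only probe sets of a mean of at least 4. The related co-receptor gene *Lrp5* averaged 4.63 ± 1.41 in ACI rats and 4.46 ± 0.817 in BN rats (SD, n = 5 each; adjusted p = 1 from limma).

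*Fzd4*, the receptor of norrin as well as of Wnt ligands, averaged 6.58 ± 0.692 in ACI rats and 7.15 ± 0.325 in BN rats, and *Fzd6*, best known for cell polarity, averaged 6.95 ± 0.450 in ACI rats and 6.25 ± 1.02 in BN rats (SD, n = 5 each). *Fzd8* averaged 4.78 ± 0.0657 in ACI rats and 5.13 ± 0.617 in BN rats (SD, n = 5 each). None of these 3 was called, with adjusted p of 0.367, 0.460 and 0.535 from limma, and *Fzd2* was above a log2 level of 4 in ACI rat 1 alone, at 4.20. *Fzd3* and *Fzd5* were near background in both strains.

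**Figure D2:**
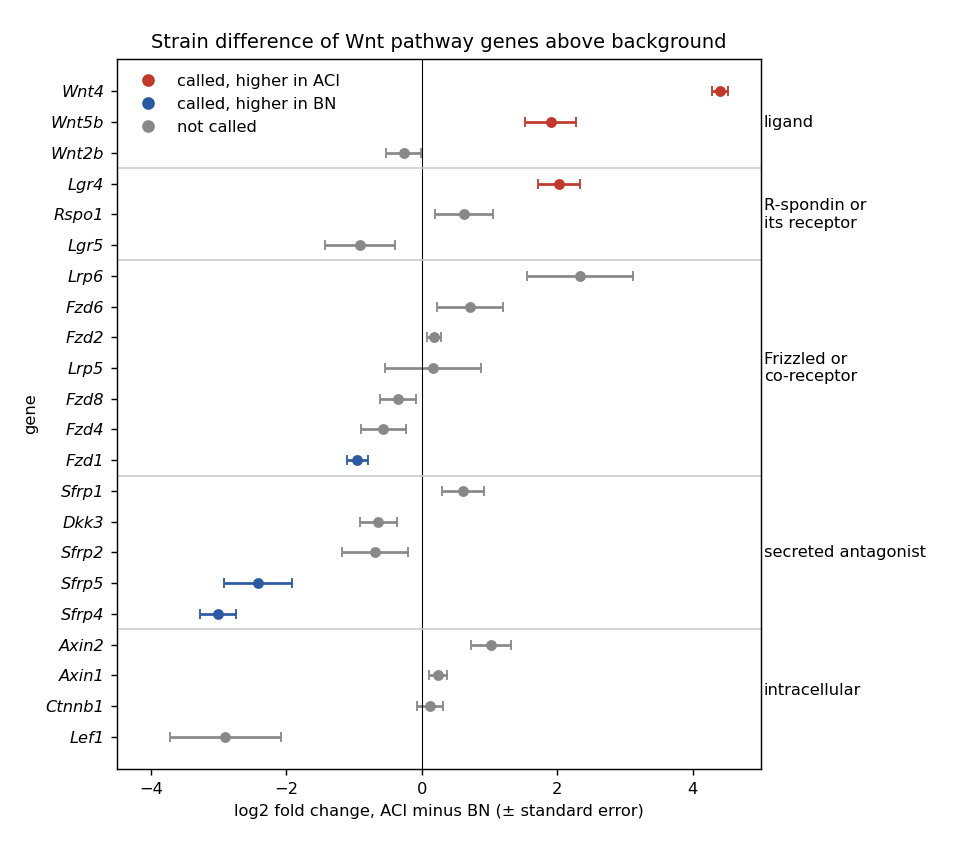
Log2 fold change, ACI minus BN (x axis, bars show ± 1 standard error from limma), of the 22 Wnt pathway genes above background in at least 1 strain (y axis), grouped by role; red marks genes called higher in ACI, blue genes called higher in BN and grey genes not called. Called *Wnt4*, *Wnt5b* and *Lgr4* lie to the right and called *Fzd1*, *Sfrp4* and *Sfrp5* to the left. *Wnt2*, a ligand gene called higher in BN, is not shown because it was near background in both strains. Where a strain is near background the plotted value is the fitted one and not a bound.

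Of the 6 secreted antagonists, 2 were called, both higher in BN rats, beside 9.12% of all named genes called higher in BN. The median log2 fold change of the group was -0.66, and *Sfrp1* alone of these 6 lay toward ACI, at 0.61. The group holds only antagonists that the naming rule caught. *Sostdc1*, an antagonist outside the rule that is given below, was called higher in ACI, at 2.12. *Sfrp4* and *Sfrp5*, whose products carry the same kind of Wnt-binding domain as Frizzled receptors, were called higher in BN rats, while *Sfrp1*, *Sfrp2*, *Dkk2* and *Dkk3* were not called by their representative probe sets. *Sfrp4* had log2 levels of 3.08, 2.78, 2.79, 2.75 and 2.98 in ACI rats 1 to 5, against 5.67, 5.47, 6.82, 6.07 and 5.39 in BN rats 1 to 5. ACI rats were near background and every BN rat was above it, so the level was at least 3.69-fold higher in BN (log2 fold change -3.01, standard error 0.263, adjusted p = 0.00026 from limma). A second probe set of *Sfrp4* was at the floor of 2.23 in every rat. In rats of ID series S alone the difference was -3.10 (adjusted p = 0.0168 from limma), and in those of series H alone -2.86 (adjusted p = 0.173).

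*Sfrp5* had log2 levels of 2.49, 2.25, 2.39, 2.28 and 2.31 in ACI rats 1 to 5, against 4.05, 3.75, 6.70, 4.74 and 4.60 in BN rats 1 to 5. BN rat 3 was the highest and BN rat 2 stayed under 4, while no ACI rat came near them. The level was at least 1.70-fold higher in BN (log2 fold change -2.42, standard error 0.505, adjusted p = 0.0159 from limma). With every value under 4 set to 4, the log2 fold change of *Sfrp5* was -0.82 and was not called (adjusted p = 0.456 from limma). It was called within neither ID series alone (-2.46 in S and -2.38 in H, adjusted p = 0.176 and 0.0592 from limma), and without BN rat 3 it was -1.94 (adjusted p = 0.00103).

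*Sfrp2*, made by stromal cells, had a median log2 level of 5.95 with a range of 5.01 to 6.88 in ACI rats, against a median of 6.48 with a range of 5.69 to 8.04 in BN rats, and the highest was BN rat 3 (adjusted p = 0.483 from limma). *Dkk3*, a divergent Dickkopf gene, averaged 7.39 ± 0.175 in ACI rats and 8.03 ± 0.601 in BN rats (SD, n = 5 each; log2 fold change -0.64, adjusted p = 0.190 from limma). BN rats 1 to 3 had 8.61, 8.20 and 8.55, above every ACI rat, whereas BN rats 4 and 5 had 7.37 and 7.42, within the ACI range of 7.16 to 7.62. *Dkk3* was called within series S and without BN rats 4 and 5. With all rats kept, it was also called with array weights and with its probe sets averaged. *Dkk2* was near background in both strains.

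Inside the receiving cell, none of the 4 genes was called by its representative probe set. *Axin1*, which encodes the scaffold of the destruction complex, averaged 7.63 ± 0.159 in ACI rats and 7.39 ± 0.256 in BN rats (SD, n = 5 each; adjusted p = 0.321 from limma). *Axin2*, a scaffold that the pathway itself induces, had log2 levels of 5.27, 4.56, 5.14, 4.84 and 6.13 in ACI rats 1 to 5, against 3.93, 3.94, 4.47, 4.56 and 3.92 in BN rats 1 to 5. The strains met at 4.56, in ACI rat 2 and BN rat 4. By limma the difference was 1.02 ± 0.295 on the log2 scale (± standard error, adjusted p = 0.0577), and it was called in 6 of 24 alternative fits, that without ACI rat 2 among them, with adjusted p from 0.0161 to 0.675 over all of them.

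*Ctnnb1* is read by 4 probe sets that did not give the same answer. The representative had log2 levels of 13.27, 13.45, 13.54, 13.52 and 12.96 in ACI rats 1 to 5, against 12.97, 12.92, 13.04, 13.65 and 13.58 in BN rats 1 to 5, with overlap and no call (log2 fold change 0.12, standard error 0.187, adjusted p = 0.802 from limma). The second had 13.07, 12.70, 12.77, 12.73 and 14.40 in ACI rats 1 to 5, against 10.76, 11.31, 11.02, 11.80 and 11.83 in BN rats 1 to 5. On that probe set every ACI rat lay above every BN rat, a 3.46-fold difference (log2 fold change 1.79, standard error 0.377, adjusted p = 0.0167 from limma). The third overlapped between strains and was not called (7.45 ± 1.66 in ACI rats and 5.88 ± 1.44 in BN rats, SD, n = 5 each; adjusted p = 0.389 from limma), and the fourth was at the floor of 2.23 in every rat. ACI rat 5 was the highest ACI rat on the second probe set and the lowest on the representative and, at 4.54, on the third. Over all probe sets of the array 6.79% were called higher in ACI and 5.87% higher in BN, or 12.7% in either direction, and values did not overlap in 6.8% with ACI above and in 5.47% with BN above. Whether *Ctnnb1* differed between strains thus depended on the probe set read.

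*Sfrp1* likewise had a call on its second probe set only. The representative averaged 7.74 ± 0.307 in ACI rats and 7.13 ± 0.642 in BN rats (SD, n = 5 each; log2 fold change 0.61, adjusted p = 0.281 from limma). The second had log2 levels of 5.06, 5.07, 5.78, 5.71 and 6.39 in ACI rats 1 to 5, against 3.55, 4.31, 4.86, 4.13 and 3.55 in BN rats 1 to 5. It was higher in ACI without overlap (log2 fold change 1.52, standard error 0.343, adjusted p = 0.0223 from limma), but the call was lost without ACI rat 3, without ACI rat 4 and without BN rat 1 (adjusted p = 0.058, 0.0593 and 0.0564). The remaining probe set was near background in both strains and not called (log2 fold change 0.56, adjusted p = 0.0989 from limma). *Fzd4* had a second probe set near background in both strains with a log2 fold change of 0.07, opposite in sign to the representative at -0.57, and neither was called.

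**Figure D3:**
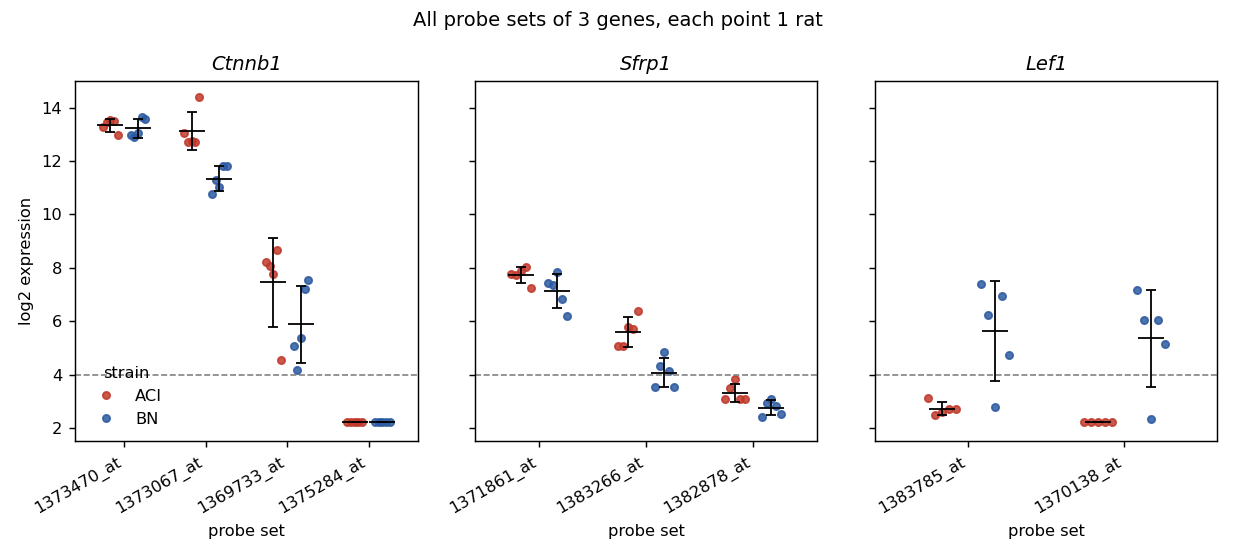
Log2 expression (y axis) on every probe set (x axis, in order of mean level) of *Ctnnb1*, *Sfrp1* and *Lef1* with 1 point per rat, ACI in red on the left and BN in blue on the right; bars show mean ± SD over 5 rats and the dashed line a log2 level of 4. The strains separate on the second probe set of *Ctnnb1* and of *Sfrp1* and overlap on the first; on both *Lef1* probe sets BN rat 3 is the lowest BN rat and near background like the ACI rats.

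*Lef1*, a transcription factor that carries β-catenin to its target genes and is also abundant in lymphocytes, varied most among BN rats. Its representative probe set had log2 levels of 3.11, 2.47, 2.59, 2.72 and 2.72 in ACI rats 1 to 5, against 7.38, 6.25, 2.80, 6.96 and 4.72 in BN rats 1 to 5. All ACI rats and BN rat 3 were near background, and the other BN rats were above it. The level was at least 3.08-fold higher in BN and just missed the threshold (log2 fold change -2.90, standard error 0.824, adjusted p = 0.0551 from limma). *Lef1* was called in 6 of 24 alternative fits, with adjusted p from 0.0039 to 0.436 over all of them. That without BN rat 3 was among the 6 (-3.61, adjusted p = 0.0039 from limma). The other calls kept all rats. They came with array weights (adjusted p = 0.00661 from limma), median centring (0.019) and quantile normalization (0.0488). They also came with the filter on mean level (0.0109) and with its probe sets averaged (0.0278). The second probe set was at 2.23 in every ACI rat and had 7.16, 6.05, 2.35, 6.06 and 5.16 in BN rats 1 to 5, so BN rat 3 lay near background with the ACI rats. It was called (log2 fold change -3.13, standard error 0.796, adjusted p = 0.0362 from limma), but with each rat left out in turn it was called in 1 of 10 fits only, that without BN rat 3.

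Levels of lymphocyte markers differed between the same rats. The mean of 12 T cell markers was 4.12 to 4.63 in ACI rats, against 8.07, 7.11, 4.76, 7.69 and 7.34 in BN rats 1 to 5. The mean of 10 B and plasma cell markers was 2.84 to 2.92 in ACI rats, against 8.32, 7.29, 3.95, 7.71 and 7.39 in BN rats 1 to 5. Of the marker genes with values, 3 of 12 T cell genes and 9 of 10 B and plasma cell genes were near background in all ACI rats. On both lists BN rat 3 was the lowest of its strain, as it was for *Lef1*. *Tcf7*, a relative of *Lef1* that T cells also make, followed the same order of strains, with 5.88, 5.73, 5.41, 5.32 and 6.36 in ACI rats 1 to 5, against 10.33, 8.97, 6.38, 9.82 and 9.20 in BN rats 1 to 5 (log2 fold change -3.20, standard error 0.690, adjusted p = 0.0187 from limma). The part of lymphocytes in the *Lef1* and *Tcf7* differences was not tested.

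**Figure D4:**
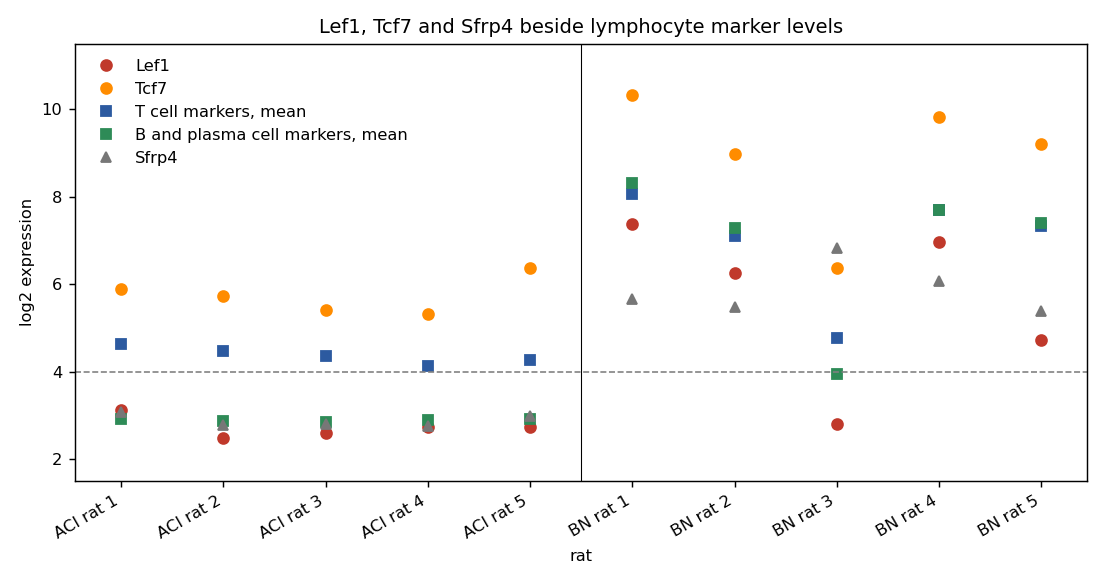
Log2 expression (y axis) of *Lef1*, *Tcf7* and *Sfrp4* and the mean log2 level of T cell markers and of B and plasma cell markers in each rat (x axis; ACI rats left of the vertical line, BN rats right of it); the dashed line marks a log2 level of 4. In BN rat 3 *Lef1* was at 2.80 and the T cell markers at 4.76, the lowest of the BN rats, while *Sfrp4* was at 6.82, the highest.

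In each strain some rats were often at the ends of the range. Of the 17 genes above background in at least 1 ACI rat, ACI rat 5 was the highest in 6 and the lowest in 6. Among the 19 genes above background in at least 1 BN rat, BN rat 3 was the single highest of its strain in 10 and the lowest in 2. BN rat 5 was the highest in 2 and the lowest in 10. Genes with BN rat 3 at the top included *Fzd1* at 8.91, *Sfrp2* at 8.04, *Sfrp4* at 6.82, *Sfrp5* at 6.70, *Fzd8* at 6.13, *Wnt5b* at 7.55 and *Lrp6* at 7.90. Fibroblast markers also averaged highest in BN rat 3 among all rats, at 10.37, and luminal markers highest among BN rats, at 9.55. Without this rat, *Fzd1*, *Sfrp4*, *Sfrp5*, *Wnt4*, *Wnt5b* and *Lgr4* were called in the same direction, with log2 fold changes of -0.83, -2.77, -1.94, 4.38, 2.23 and 2.13.

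Genes that handle Wnt ligands and receptors beyond the named families were called higher in ACI or not at all, beside the 8.29% of all named genes called higher in ACI and 9.12% higher in BN. Of 11 measured genes of Wnt secretion and ligand handling, 2 were higher in ACI and none in BN, with a median log2 fold change of 0.07. *Sostdc1*, which encodes a secreted antagonist of BMP and Wnt signals, averaged 5.06 ± 0.373 in ACI rats and 2.93 ± 0.111 in BN rats, near background (SD, n = 5 each), and was at least 2.08-fold higher in ACI (adjusted p = 0.000173 from limma). *Gpc4*, a glypican of the cell surface that binds growth factors, averaged 9.65 ± 0.221 in ACI rats and 7.69 ± 0.195 in BN rats (SD, n = 5 each; log2 fold change 1.96, adjusted p = 6.95e-05 from limma). Of 10 other receptors and regulators of receptor turnover, 2 were higher in ACI and none in BN, with a median of 0.29: *Ryk*, an atypical Wnt receptor, at 0.93 (adjusted p = 0.00153 from limma), and *Znrf3*, the ubiquitin ligase that removes Frizzled from the surface and that Lgr4 with R-spondin holds back, at 1.91 (adjusted p = 0.0278).

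Between receptor and nucleus, 1 of 24 genes of the Dishevelled, Apc and kinase steps was called in each direction, with a median of 0.02 over the list. Beside this, 8.29% of all named genes were called higher in ACI and 9.12% higher in BN. *Csnk1a1*, the kinase that marks β-catenin first, was higher in ACI at a log2 fold change of 0.66 (adjusted p = 0.0349 from limma). *Apc2*, a relative of *Apc*, was higher in BN at -1.57 (adjusted p = 0.039 from limma). Its probe set is of a kind that shares sequence with other transcripts. The strains overlapped on it, with BN rat 5 at 4.38 and ACI rats at 4.17 to 4.42. Of 18 Tcf genes and β-catenin cofactors, 2 were higher in ACI and 2 in BN, beside 17.4% of all named genes called in either direction. The median of this list was 0.26. *Tcf7l2*, which encodes the main Tcf factor of many epithelia, averaged 11.78 ± 0.0607 in ACI rats and 10.99 ± 0.357 in BN rats (SD, n = 5 each; log2 fold change 0.80, adjusted p = 0.0129 from limma), and *Crebbp*, a histone acetyltransferase, was at 0.57 (adjusted p = 0.0121). Toward BN were *Tcf7*, given above, and *Tle4*, a co-repressor of the Groucho family, at -0.64 (adjusted p = 0.0352 from limma).

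Genes known as Wnt targets in other settings were split between the strains. Of 27 measured, 6 were higher in ACI, 7 higher in BN and 14 were not called, with a median log2 fold change of -0.04. Over all named genes 17.4% were called in either direction, and the list, whose members were chosen with earlier results known, was not tested against them. Toward ACI, *Id2*, an inhibitor of differentiation, had 2.13 (standard error 0.306, adjusted p = 0.0028 from limma) and *Znrf3* had 1.91; the other 4 were *Ccnd1*, *Myc*, *Jun* and *Sox4*. Toward BN, the metalloproteinase gene *Mmp7* was near background at 2.37 in all ACI rats, against 9.83 ± 0.440 in BN rats (SD, n = 5), at least 56.8-fold higher in BN (adjusted p = 3.28e-07 from limma), and *Tcf7* followed. The other 5 toward BN were *Cd44*, *Bmp4*, *Ccn5*, *Tiam1* and *Procr*. The study named *Mmp7* and *Cd44* from these samples, so they are not independent evidence of a direction, and these genes answer to many signals besides Wnt. By quantitative PCR it also reported *Mmp7* as significantly higher in BN rats. Taking each gene of these lists once, 12 of 86 were called higher in ACI and 9 higher in BN, beside 8.29% and 9.12% of all named genes. Their median was 0.08, against medians of -0.01 for the 36 Wnt genes and 0 for all named genes.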

How the data were processed

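Total RNA of whole mammary glands was hybridized to Affymetrix Rat Genome arrays, 1 per rat. The deposited log2 values are, per the labels, GCRMA (version 2.18.1) summaries per probe set made by the authors, which correct background by probe sequence and normalize arrays to each other; the set of arrays normalized jointly is unknown here. BN samples were taken as BN from their titles and strain field, although their extraction protocol speaks of ACI rats. After 57 control probe sets were left out, limma 3.58.1 under R 4.3.3 compared strains over 31042 probe sets. The fit had no further terms, with Benjamini-Hochberg adjustment over all probe sets. On simulated data it recovered 15 of 50 planted log2 folds of 1 and 20 of 50 of -1. It recovered 41 of 50 of 2 and 38 of 50 of -2, with 8 false calls. In the simulation a log2 fold of 1 was thus often missed. Far fewer differences were planted than the 3930 probe sets called in the real fit. Adjustment is stricter where fewer probe sets differ, so these numbers do not measure how often the real fit missed a difference. An exact permutation test over the 252 arrangements of rats gave p = 0.00794, two-sided and the smallest possible, for each gene without overlap. The platform annotation named genes; all 36 matched RefSeq by gene ID.

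Members and lists were chosen with earlier results of these data known. Each called gene was named, with values per rat for called genes, *Wnt4*, *Lef1*, *Ctnnb1* and *Axin2*; in other lists each called gene, or the largest changes. *Lrp6*, *Dkk3*, *Lgr5*, values of single rats in other genes, and the target genes named without values were picked after their values were seen. Precision is limited by the number of arrays. Alternatives are given under the results of processing: blocks, ID series, rats left out, filters, scalings, tests and probe set rules.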

Additional observations from a re-analysis of the deposited data

Results flagged for a closer look

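In 58 strain groups checked for a rat apart from the others (its gap to the nearest rat over 0.71 of the range of the strain), 4 were found, and chance flags about 1 in 20. *Wnt5b* was at 8.59 in ACI rat 1 and at 8.00 to 8.10 in the other ACI rats. The second probe set of *Ctnnb1* was at 14.40 in ACI rat 5 and at 12.70 to 13.07 in the others. *Wnt2b* was at 4.67 in BN rat 5 and at 3.36 in the others. B and plasma cell markers averaged 3.95 in BN rat 3 and 7.29 to 8.32 in the other BN rats.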

How the results depend on the processing

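Totals in brackets count all probe sets called in either direction in the same fit, against 3930 of 31042 in the main fit. The 3 genes called higher in ACI and the 4 called higher in BN became 0 and 0 within ID series H (total 100). With array weights they became 7 and 7 (total 8397). With only probe sets of a mean of at least 4 they became 5 and 3 (total 4921 of 14526). With the probe sets of each gene averaged they became 5 and 6 (total 3090 of 14217 genes). With arrays centred on the median of probe sets with a mean above 4 they became 5 and 4 (total 5261). After quantile normalization they were 4 and 4 (total 4559). *Wnt2* was called after neither of these scalings (adjusted p = 0.108 after centring and 0.0851 after quantile normalization, from limma). With a floor at 4 they were 3 and 2, without *Wnt2* and *Sfrp5* (total 3381). By the methods' t-test without adjustment they were 6 and 5 (total not taken). After Benjamini-Hochberg adjustment the methods' t-test gave 3 and 4 (total 3595). Without 1 rat at a time they ran from 3 to 4 and from 3 to 5 (totals 2598 to 4618). *Wnt4*, *Lgr4*, *Fzd1* and *Sfrp4* kept their call in 23 of 24 alternative fits each, all but that within ID series H. *Wnt2* kept its call in 9 of 23. *Ctnnb1* by its representative probe set had a log2 fold change of -0.38 within series H, opposite to the 0.12 over all rats, and 0.44 within series S, where it was called (adjusted p = 0.0359 from limma). Strains share replicate numbers only as names: the correlations of same-numbered rats ran from -0.255 to 0.226. With the replicate number as a block 2 genes were called higher in ACI and 3 higher in BN, without *Wnt5b* and *Sfrp5* (total 1926). The counts of the other pathway genes were then 7 and 4, against 12 and 9. Those counts were 0 and 1 within series H and 22 and 12 with array weights. They were 21 and 13 by the methods' t-test without adjustment, and 9 and 5 without ACI rat 3 (total 2778). The cause of these changes was not tested. Levels near 2.23 have no order.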
